A study of Mus musculus with 8 samples.

Results

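The last stretch of mouse chromosome 12 holds the immunoglobulin heavy chain locus (Igh) from its Cμ constant gene through the variable (VH) genes, and then the chromosome end beyond them. Rad21 peaks of this stretch were taken as every peak on chromosome 12 that started at position 114500000 or later in the deposited lists (mm9). This gave 248 of 199072 peaks (0.125%), and after the lists had been lined up they formed 74 of 64662 sites (0.114%). The sites are numbered 1 to 74 along the chromosome, and their positions are those of PS_Ia replicate 1, the library on which the others were lined up.

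Rad21 was mapped by ChIP-seq in 8 libraries of CH12F3, a mouse B lymphoma line, with 2 libraries for each of 4 Igh genotypes. PS_Ia cells are αInv cells with a deletion between Sγ3 and Sα, the switch regions of γ3 and α, that left only parts of both. PS_Ca cells carry that deletion on another background, in which the non-coding Igh allele had lost everything between VH and the 3' CTCF-binding elements. FS_Ia cells are αInv cells with a deletion between Cγ3 and Cα that kept both switch regions at full length, and FS_Ca cells have a deletion between Cγ3 and Iα that kept both at full length, on the same non-coding-allele background as PS_Ca. All lines were AID-/-, without the deaminase whose action leads to breaks in switch regions, and all had been stimulated for 3 days with anti-CD40, IL4 and TGF-β. The deletions between the switch regions lie before Cμ in the direction of the chromosome's numbering, whereas the deletion of the non-coding allele in the Ca lines reaches into the stretch, as far as VH by its name. Separate cultures or clones for the replicates are not stated in the labels, so each p-value covers only the spread between these samples, which may be technical.

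Rad21 is a subunit of cohesin, the ring-shaped complex that extrudes loops of chromatin and comes to rest mainly at sites bound by CTCF. In B cells, loop extrusion across Igh brings distant VH genes to the site of V(D)J joining, and later brings switch regions together for class switching. On an allele that has joined a VH gene, the DNA between that gene and the joined D and JH segments is lost. Beyond the VH genes the chromosome continues with ordinary genes. In the RefSeq gene order of another build (GRCm38), used only for names, 15 protein-coding genes follow the last VH gene. They include Zfp386, a KRAB zinc finger gene, Ncapg2, a subunit of condensin II, and Dnah11, an axonemal dynein heavy chain. The others are Vipr2, Wdr60, Esyt2, Ptprn2, Rapgef5, Cdca7l, Sp4, Sp8, Abcb5, Itgb8, Macc1 and Tmem196. No site was assigned to a gene, because no gene positions of the files' build were used.

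The lists differed greatly in length, and the peaks of the chromosome end followed. PS_Ia replicates 1 and 2 had 27 and 58 of them among 20582 and 47461 peaks, and PS_Ca replicates 1 and 2 had 44 and 15 among 30982 and 11288. FS_Ia replicates 1 and 2 had 19 and 26 among 13840 and 26157, and FS_Ca replicates 1 and 2 had 24 and 35 among 17212 and 31550. Read totals were not used here. The only sign of depth was the expected background in the fold values, which was 0.587 to 0.862 fragments per position in the PS libraries and 0.223 to 0.731 in the FS libraries. Member summits were 3 to 30 fragments high, with a median of 9, so a peak missing from a short list fell below that list's threshold, which does not make the site empty.

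In 6 of the 8 lists the sites of the chromosome end lay 97.0 to 103 kb lower than in PS_Ia replicate 1. PS_Ia replicate 2 lined up with PS_Ia replicate 1 after a shift of 102805 bp, and PS_Ca replicate 2 after 101302 bp. The FS_Ia replicates needed 99361 and 99330 bp, and the FS_Ca replicates 96981 and 96979 bp. PS_Ca replicate 1 needed -24 bp. The shift was thus 2.37 kb larger in FS_Ia than in FS_Ca, while the replicates within each of these genotypes were 31 bp and 2 bp apart.

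The shift of each list was chosen as the one with the most pairs, so the pairing describes the fit and does not test it. Of the 177 summits in the displaced lists, 1 lay within 500 bp of a PS_Ia replicate 1 summit as deposited, and 106 did so after the shift. The share paired was 39.7% in PS_Ia replicate 2, the longest list, and 57.1% to 86.7% in the other displaced lists. The median distance left between paired summits was 66 to 108 bp in the 7 lists set against PS_Ia replicate 1. Split into the nearer and the farther part of the stretch, the medians in 6 of these 7 lists were above 0 in the nearer and below 0 in the farther part, and all were within 82 bp of 0. Each shift was refined to the median difference, and all lists were set against the same library, so these signs are not independent. On chromosome 12 before Igh the best shift was at most 25 bp in every list. What displaced the lists was not tested.

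**Figure D1:**
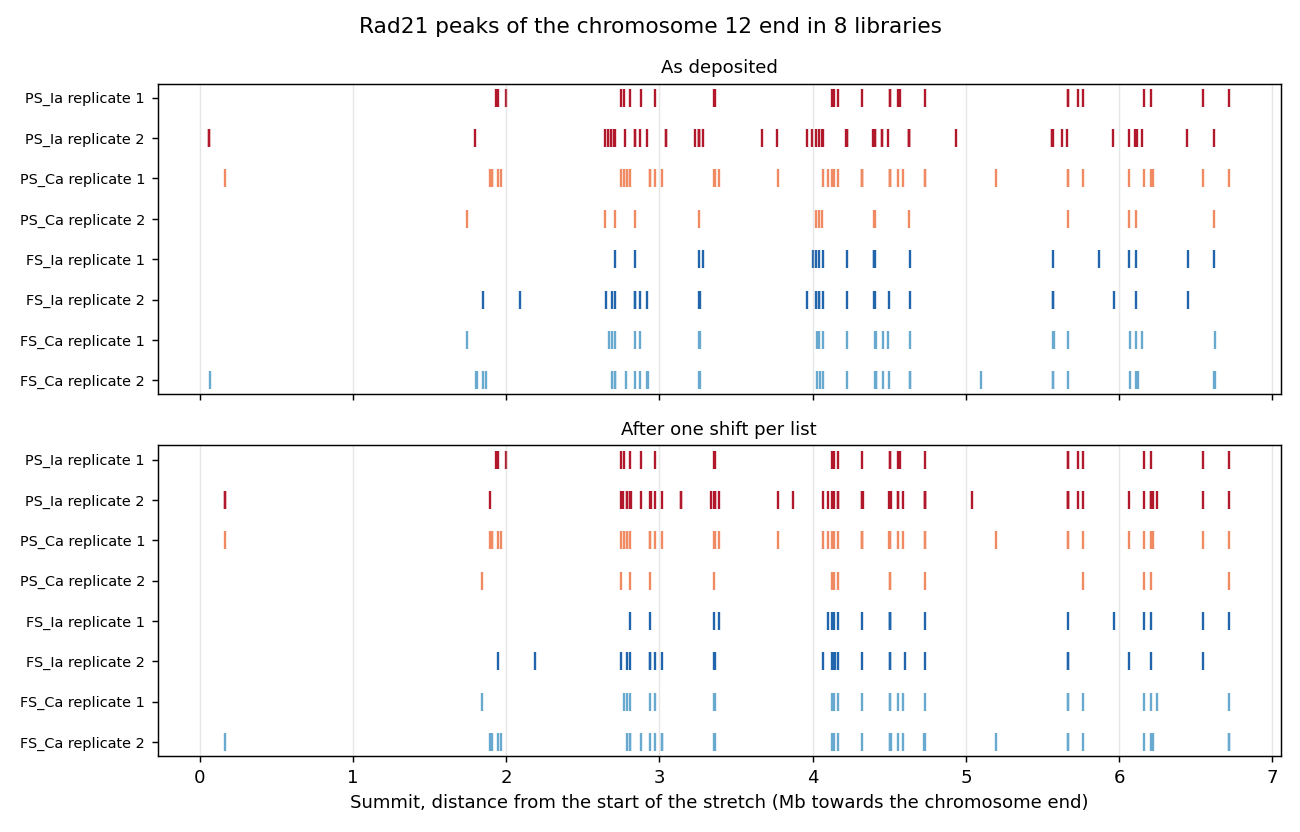
Summits of the 248 peaks by library, against distance in Mb from the start of the stretch, as deposited (top) and after 1 shift per list (bottom); each tick is a summit, coloured by genotype. After the shift the ticks of the 8 libraries stand in columns, with an empty stretch of 1.68 Mb between the Cμ site and the first VH site.

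The rule acts on deposited positions, so the lists enter it at different points of the locus. The nearest peaks inside it started at 114559448 and 114560243 in PS_Ia replicate 2 (folds 6.44 and 4.83), at 114565502 in FS_Ca replicate 2 (fold 5.20) and at 114662778 in PS_Ca replicate 1 (fold 5.64). These 4 peaks, far apart as deposited, fell together into site 1. The nearest outside it started at 114495265, 114497604 and 114498490 in PS_Ia replicate 2 (folds 6.44, 3.76 and 4.30) and at 114499304 in FS_Ca replicate 2 (fold 4.04).

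Site 1, at chromosome 12, 114662253 to 114663404, lies near Cμ and its switch region, by approximate knowledge of the mm9 map. It was found in PS_Ia replicate 2, PS_Ca replicate 1 and FS_Ca replicate 2, the 3 longest lists. Its folds there were 6.44, 5.64 and 5.20 over the list's own background, with summits of 11, 9 and 8 fragments. Folds are the values the authors' peak caller gave each peak, and they rank peaks within a list only.

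Past site 1 no library had a peak for 1.68 Mb, up to 116343638. By number, 146 of 64641 gaps between neighbouring sites of the genome (0.226%) and 10 of 3113 on chromosome 12 were at least as wide. Most gaps are short, with 60.3% under 10 kb over the rest of the genome, so these are not shares of sequence length. The gap was also the widest of 73 at the chromosome end, so it was picked for its width. Unlike the gap, the first 1 Mb beyond the VH genes held 6 and 17 peaks in the PS_Ia replicates and 11 and 3 in PS_Ca. It held 4 and 8 in FS_Ia and 7 and 10 in FS_Ca. A stretch of 1 Mb of chromosome 12 just before Igh held 26 and 122 peaks in PS_Ia and 39 and 13 in PS_Ca. It held 16 and 43 in FS_Ia and 20 and 36 in FS_Ca. That 1 Mb was a dense one, since chromosome 12 before Igh as a whole had 3.44 to 23.6 peaks per Mb, fewer in every library.

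The VH genes carried a few low peaks in a loose group, followed by another empty stretch. Sites 2 to 10 lay between 116343638 and 116691147, then came 558 kb without a peak and site 11. Of sites 2 to 11, 6 were found in at least 2 libraries, and none in more than 5. Site 2, at 116343638 to 116343902, was held by PS_Ca replicate 2 (fold 6.30) and FS_Ca replicate 1 (fold 5.74), and by no Ia library. Site 3, at 116397601 to 116398240, had folds of 6.98 in PS_Ia replicate 2, 4.51 in PS_Ca replicate 1 and 4.62 in FS_Ca replicate 2.

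Further along, sites 5 and 8 were found in the same pair of libraries. Site 5, at 116409793 to 116410354, had folds of 7.34 in PS_Ca replicate 1 and 4.62 in FS_Ca replicate 2, and site 8, at 116468002 to 116468497, had 5.08 and 4.62. Site 7, at 116446961 to 116448152, was found once in each genotype, with folds of 8.01 in PS_Ia replicate 1, 5.64 in PS_Ca replicate 1, 4.91 in FS_Ia replicate 2 and 4.04 in FS_Ca replicate 2. Site 11, at 117248843 to 117249696, lies so near the approximate far end of the VH genes that its side of that end is not known. It was counted with the VH genes and had the most libraries among these sites. Its folds were 8.01 and 6.44 in PS_Ia replicates 1 and 2, 4.51 and 5.04 in PS_Ca replicates 1 and 2, and 4.09 in FS_Ia replicate 2, and the other FS libraries had no peak there. Sites 4, 6, 9 and 10 were found in 1 library each.

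Peaks from Cμ through the VH genes were few in all libraries, and those with the best −log10 q were in PS libraries. PS_Ia replicates had 4 and 4 of these peaks, PS_Ca replicates 7 and 2, FS_Ia replicates 0 and 3, and FS_Ca replicates 1 and 5. Peaks with a −log10 q of at least 5 numbered 2 and 3 in PS_Ia, 3 and 1 in PS_Ca, and 0 in each of the 4 FS libraries. Those of PS_Ia include site 11 in both replicates. Over the whole lists 13125 and 18479 peaks reached that value in PS_Ia and 18401 and 7231 in PS_Ca. In FS_Ia 9838 and 14870 did so, and in FS_Ca 9794 and 17017. The best −log10 q was 5.72 to 9.64 in the PS libraries and 4.05 to 4.93 in the 3 FS libraries that had a peak. How often stretches this sparse give such counts elsewhere was not tested. The strict count of PS minus FS was 1.54 per 10000 peaks of the list (two-sided exact permutation p = 0.0286, the smallest that 4 against 4 libraries allow; adjusted over 6 contrasts p = 0.171). It does not pass the adjustment, and the expected background was also higher in all 4 PS libraries than in 3 of the 4 FS libraries. The part of the background in the count was not tested. In lists of equal length PS minus FS was 0.886 for the same stretch (two-sided exact permutation p = 0.257). The prefixes of the peak names set the FS libraries apart from the PS libraries, so switch length and that split of the files cannot be told apart.

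Beyond the VH genes the picture changed, with 63 sites and 222 peaks in 3.97 Mb. All 9 sites of the chromosome end that every library held lay there, and so did all 5 sites held by 7 libraries (4.8% of all sites of the genome were). Site 14, at 117308367 to 117310469, was the first common site past the VH genes. Its folds were 6.16 and 9.13 in PS_Ia replicates 1 and 2, 5.64 and 5.67 in PS_Ca, 8.51 and 13.9 in FS_Ia, and 12.9 and 5.78 in FS_Ca. The FS_Ca replicates, of the same genotype, were far apart.

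Site 23, at 117857986 to 117859587, had the best mean rank of the 9, with folds between 7.17 and 16.6. Its folds were 8.63 and 16.6 in PS_Ia, 11.9 and 10.7 in PS_Ca, 8.51 and 9.81 in FS_Ia, and 7.17 and 12.7 in FS_Ca. Sites 31 (118623387 to 118624683), 32 (118641691 to 118643040) and 34 (118665561 to 118666685) stood close together, 17.0 and 22.5 kb apart. Their folds ran between 5.42 and 11.1 at site 31, 6.16 and 9.67 at site 32, and 5.55 and 11.6 at site 34.

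A second close pair followed. Site 43, at 119002534 to 119004782, had folds of 7.74 to 13.3, and site 45, at 119007291 to 119008657, only 2.51 kb on, had 5.74 to 10.7. Site 43 ranked higher than site 45 by its mean percentile within the lists, 21.6 against 34.8, where 0 is the strongest peak of a list.

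Sites 54 and 68 were the last that every library held. Site 54, at 119231228 to 119232499, had folds of 10.5 and 10.2 in PS_Ia, 11.3 and 5.67 in PS_Ca, 13.2 and 13.9 in FS_Ia, and 7.17 and 12.7 in FS_Ca. Site 68, at 120708357 to 120709630, had folds of 4.93 and 16.1 in PS_Ia, 12.4 and 5.67 in PS_Ca, 13.9 and 16.4 in FS_Ia, and 8.61 and 8.09 in FS_Ca. The PS_Ia replicates, of the same genotype, were far apart there.

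The site nearest the chromosome end was the best ranked of all 74, yet 1 library lacked it. Site 74, at 121219709 to 121221585, had folds of 11.7 and 8.59 in PS_Ia, 10.7 and 17.0 in PS_Ca, 9.28 in FS_Ia replicate 1, and 9.33 and 10.4 in FS_Ca, whereas FS_Ia replicate 2 had no peak. Its mean percentile within the 7 lists was 16.4. Over the genome 83 of the 3105 sites held by 7 libraries (2.67%) ranked as well or better, and 19 of these 83 were the ones missing from FS_Ia replicate 2.

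The other 4 sites of 7 libraries each lacked 1 library too. Site 67, at 120664399 to 120665820, was also missing from FS_Ia replicate 2, and its folds elsewhere were 5.67 to 11.9. Site 17, at 117440271 to 117442515, was missing from PS_Ia replicate 1, with folds of 5.04 to 11.4 in the other 7 libraries. Sites 38 (118824208 to 118825071) and 61 (120168827 to 120169730) were missing from PS_Ca replicate 2, the shortest list. That list was the missing one at 56.3% of the 7-library sites of the genome, and FS_Ia replicate 2 at 11.9%.

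**Figure D2:**
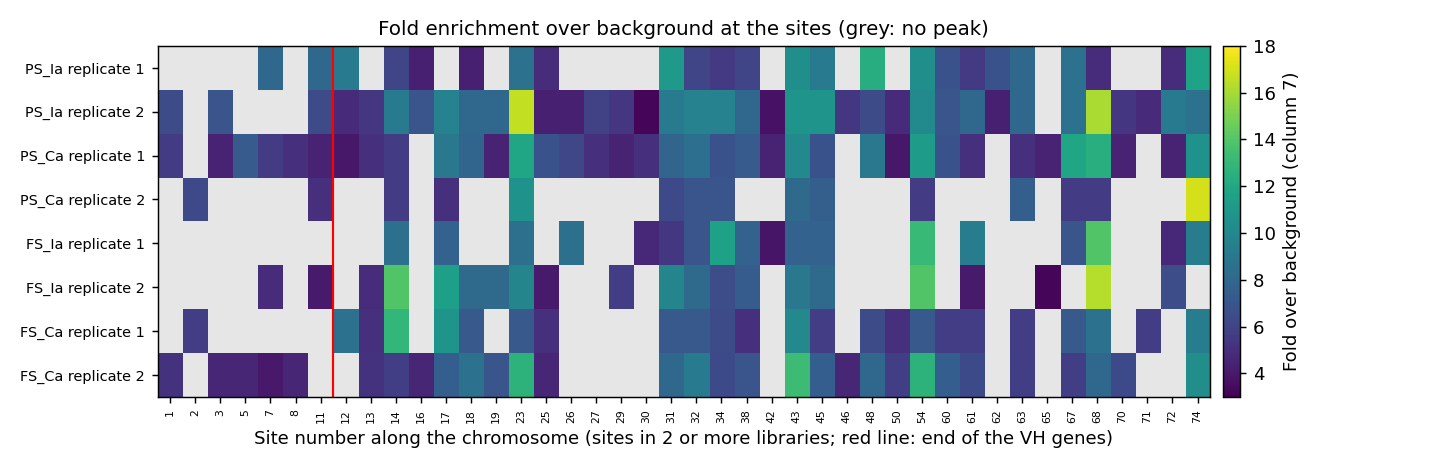
Fold over background (column 7) at the 42 sites found in 2 or more libraries, with libraries down the page and sites in chromosome order; grey marks no peak and the red line the end of the VH genes. Left of the line no site has more than 5 libraries, while to the right 9 sites are filled in all 8 rows.

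A few sites followed a genotype without reaching a test. Site 63, at 120264421 to 120265304, was held by all 6 libraries outside FS_Ia and by neither FS_Ia library, with folds of 8.01 and 8.06 in PS_Ia, 5.08 and 7.56 in PS_Ca, and 5.74 and 5.78 in FS_Ca. Over the genome 0.302% of sites showed that pattern for FS_Ia. For PS_Ia, PS_Ca and FS_Ca such absence was found at 0 of the 74 sites, and at 0.0186%, 0.0541% and 0.0139% of all sites. Site 62, at 120232915 to 120233646, was held by both PS_Ia libraries alone, with folds of 6.78 and 4.30. Over the genome 0.629% of sites were held by both PS_Ia libraries and no other. For PS_Ca, FS_Ia and FS_Ca this was so at 0 of the 74 sites, and at 0.179%, 0.0433% and 0.0882% of all sites. Site 72, at 121045773 to 121046579, followed no single genotype. It was held by all 4 Ia libraries and by PS_Ca replicate 1, with folds of 4.51 to 9.13. The share of such sites over the genome is not given here.

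Sites of 5 or 6 libraries varied in rank. Site 48, at 119058477 to 119059451, was held by 5 libraries and lacked both FS_Ia libraries and PS_Ca replicate 2, with folds of 12.3 and 6.44 in PS_Ia, 9.03 in PS_Ca replicate 1, and 6.46 and 8.09 in FS_Ca. Its mean percentile in those 5 lists was 28.7. Site 18, at 117473630 to 117474295, was held by 6 libraries with a mean percentile of 39.6, and site 25, at 117863761 to 117864531, by the same 6 with 73.8. Both lacked PS_Ca replicate 2 and FS_Ia replicate 1, the shortest lists.

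Sites of 1 library were weak within their lists, here as over the rest of the genome. Of the 74 sites, 32 were found in 1 library (43.2%, against 52.5% over the genome), 17 of them in the list of PS_Ia replicate 2, which had the most peaks. The median percentile of their peaks was 75.5, against 28.3 for the peaks at the 9 sites of all 8 libraries. Over all peaks at such sites in the rest of the genome the medians were 75.5 and 21.8. Median width was 294 bp at the sites of 1 library and 1350 bp at those of all 8.

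The number of libraries per site was close to that of the genome. Sites of all 8 libraries made up 12.2% of the chromosome end, against 10.4% of all sites of the genome and 8.49% on chromosome 12 before Igh. Sites of 7 or 8 libraries were 0 of 11 from Cμ through the VH genes and 14 of 63 (22.2%) beyond them. Over all sites of the genome the share was 15.3%, and on chromosome 12 before Igh 12.3%. With 11 sites the share of the Igh stretch is coarse. These shares are descriptions and were not tested. The 9 common sites stood lower in their lists than common sites elsewhere, again with no test, with a median of their mean percentiles of 34.8, against 25.1 on chromosome 12 before Igh and 22.6 over the rest of the genome. They were also narrower, with a median of 1350 bp against 2114 and 2022 bp.

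**Figure D3:**
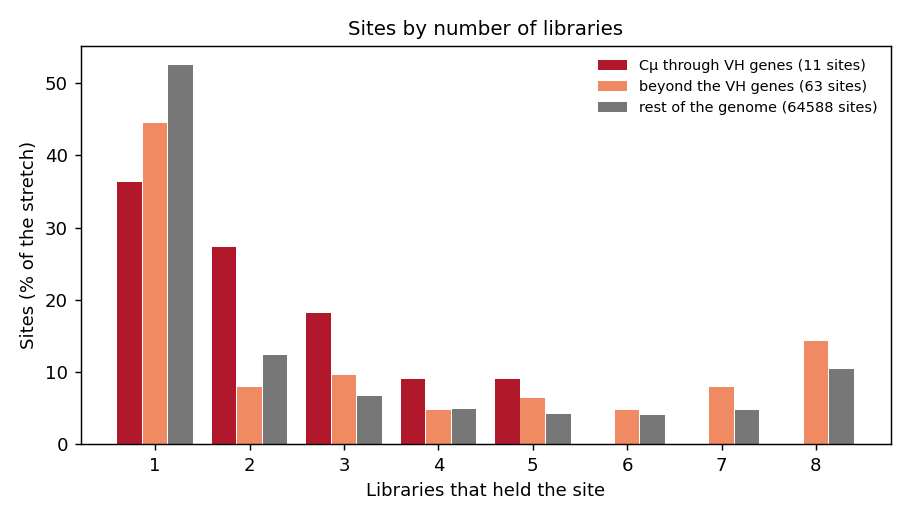
Share of sites (%) by the number of libraries that held them, for the 11 sites from Cμ through the VH genes, the 63 sites beyond and the 64588 sites of the rest of the genome. Sites beyond the VH genes reach 14.3% in the bin of 8 libraries and the rest of the genome 10.4%. The Igh stretch has none above 5 libraries.

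Common sites were spaced unevenly. Between neighbouring sites of all 8 libraries the distances were 548, 764, 17.0, 22.5, 336, 2.51, 223 and 1476 kb in chromosome order. Their median was 279 kb, against 134 kb on chromosome 12 before Igh and 127 kb over the rest of the genome. The lower and upper quartiles were 21.1 and 602 kb, against 47.5 and 355 kb before Igh. By length, 9 common sites lay in the 3.97 Mb beyond the VH genes and 257 in the 111 Mb before Igh. These spacings were not tested. The widest distance, between sites 54 and 68, held sites of fewer libraries, among them sites 61 and 67 with 7 each. When all sites of at least 2 libraries were chained over gaps of up to 50 kb, the group with the most common sites was the one of sites 29 to 34, with 3 of them within 101 kb.

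Peak density was compared between the stretches within each library. From Cμ through the VH genes the libraries had 1.51 and 1.51 peaks per Mb in PS_Ia, 2.64 and 0.756 in PS_Ca, 0 and 1.13 in FS_Ia, and 0.378 and 1.89 in FS_Ca. Beyond the VH genes they had 5.79 and 13.6 in PS_Ia, 9.32 and 3.27 in PS_Ca, 4.78 and 5.79 in FS_Ia, and 5.79 and 7.55 in FS_Ca. The Igh stretch was less dense in 8 of 8 libraries and the values did not overlap, with 1.23 ± 0.851 peaks per Mb, against 6.99 ± 3.22 beyond (SD, n = 8), a difference of -5.76 (exact two-sided sign-flip permutation test, p = 0.00781, adjusted p = 0.0156 over 4 tests). In lists of −log10 q of at least 5 it was -3.73 and in lists of equal length -3.46, both with the same p values. The sign-flip p of 0.00781 is the smallest that 8 libraries allow, so it says nothing more than that all shared 1 sign.

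The chromosome end as a whole, which includes the sparse Igh stretch, was also less dense than chromosome 12 before Igh. The stretch beyond the VH genes alone had 6.99 ± 3.22 peaks per Mb. It was denser than the part before Igh in FS_Ia replicate 1 (4.78 against 4.64) and less dense in the other 7 libraries. Of these, FS_Ca replicate 1 (5.79 against 5.80) and PS_Ca replicate 2 (3.27 against 3.44) came close. That contrast was not tested. The end had 4.68 ± 2.14 peaks per Mb and the part before Igh 9.11 ± 6.34 (SD, n = 8), a difference of -4.42 that had the same sign in 8 of 8 libraries (exact sign-flip permutation p = 0.00781, adjusted p = 0.0156). The size of the difference rested on PS_Ia replicate 2, which had 23.6 peaks per Mb before Igh, and without it the difference was -2.94 (exact permutation, adjusted p = 0.0312). At a −log10 q of at least 5 it was -2.11 and in lists of equal length -1.58. That library had 554 of every 10000 peaks on chromosome 12 before Igh, against 339 to 375 in the other 7, but 12.2 per 10000 at the chromosome end, where the others had 9.94 to 14.2.

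**Figure D4:**
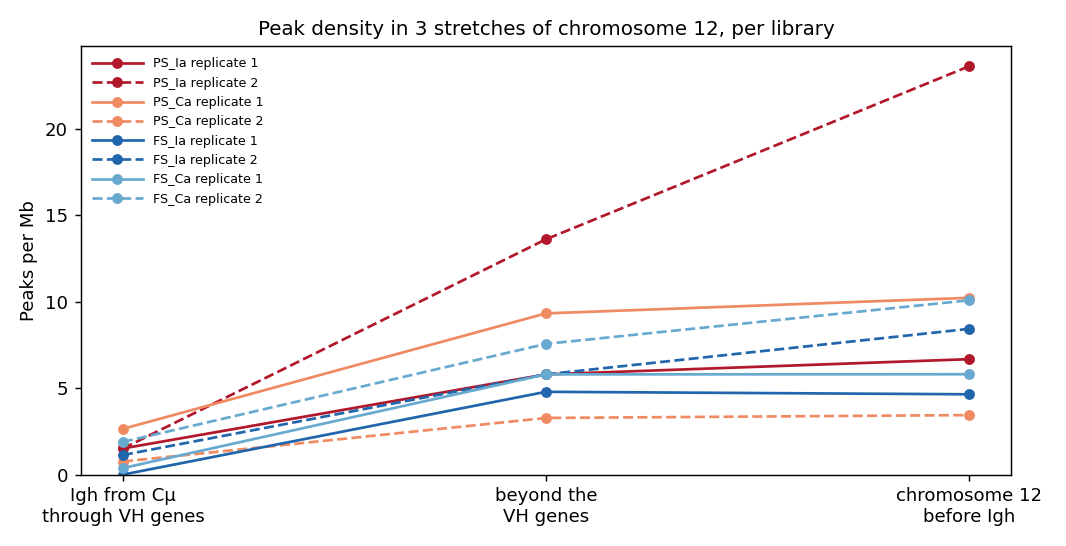
Peaks per Mb in each library (lines; solid for replicate 1, dashed for replicate 2) in the Igh stretch from Cμ through the VH genes, beyond the VH genes, and on chromosome 12 before Igh. Each line is lowest in the Igh stretch, and PS_Ia replicate 2 stands at 23.6 before Igh.

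Strength within the lists differed less between the stretches. The median percentile of the chromosome end was 48.0 ± 5.97, against 52.8 ± 3.48 on chromosome 12 before Igh (SD, n = 8), a difference of -4.75 that did not pass the test (exact sign-flip permutation p = 0.125, adjusted p = 0.125). From Cμ through the VH genes it was 65.1 ± 18.1 in the 7 libraries with a peak there, and beyond the VH genes it was 44.0 ± 6.32 over all 8. The difference over the 7 libraries was 20.6 points towards the weak end, in 6 of 7 (exact sign-flip permutation p = 0.0625, adjusted p = 0.0833). Only PS_Ia replicate 2, with a median percentile of 29.2 in the Igh stretch, had the opposite sign. Without it the difference was 26.6 (exact permutation, adjusted p = 0.0417), where 6 of 6 libraries of 1 sign give the smallest p the test allows, so this says nothing more than that sign. Leaving out any other library gave adjusted p of 0.0833 to 0.167.

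The study asks how chromatin configuration bears on the joining of broken switch regions, so the peaks were compared between the Ia and Ca alleles and between the PS and FS alleles. Per 10000 peaks of its list, the chromosome end held 13.1 and 12.2 peaks in PS_Ia, 14.2 and 13.3 in PS_Ca, 13.7 and 9.94 in FS_Ia, and 13.9 and 11.1 in FS_Ca. Both PS_Ca values were above both PS_Ia values, while the FS_Ia and FS_Ca values overlapped. The mean was 12.3 ± 1.66 over the Ia libraries and 13.1 ± 1.41 over the Ca libraries (SD, n = 4 each), so Ia minus Ca was -0.880 (two-sided exact permutation p = 0.457, adjusted p = 0.686 over 6 contrasts). It was 13.2 ± 0.812 over the PS libraries and 12.2 ± 1.98 over the FS libraries, so PS minus FS was 1.03 (exact permutation p = 0.4, adjusted p = 0.686). Neither difference passed the test. Ia minus Ca was smaller than the SD of either of its groups, and PS minus FS was smaller than the SD of the FS libraries only. Within the 3 sets of libraries that share a peak-name prefix, Ia minus Ca was -1.08 in the replicate 1 libraries of PS, -0.684 in FS and -1.07 in the replicate 2 libraries of PS.

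Neither the Igh stretch nor the stretch beyond gave a difference that passed. From Cμ through the VH genes, Ia libraries had 0.983 ± 0.803 peaks per 10000 and Ca libraries 1.55 ± 0.705 (exact permutation p = 0.314, adjusted p = 0.686; n = 4 each), and PS libraries had 1.70 ± 0.609 and FS libraries 0.828 ± 0.688 (exact permutation p = 0.114, adjusted p = 0.686). Within the prefix sets Ia minus Ca was -0.316, -0.509 and -0.929 there. The Ca lines also carry the deletion of the non-coding allele, so αInv and that deletion cannot be told apart in Ia minus Ca. Beyond the VH genes, Ia libraries had 11.3 ± 2.02 and Ca libraries 11.6 ± 1.59 (exact permutation p = 0.743, adjusted p = 0.829), and PS libraries had 11.5 ± 0.325 and FS libraries 11.3 ± 2.56 (exact permutation p = 0.829, adjusted p = 0.829). Within the prefix sets Ia minus Ca was -0.768, -0.175 and -0.139 there.

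Presence at single sites did not separate the allele types. The number of sites held by all 4 libraries of one level and none of the other was 0 of 74 for both factors. Over the genome 0.0247% of sites were in all 4 Ia and no Ca library, 0.0232% in all 4 Ca and no Ia library, 0.0402% in all 4 PS and no FS library, and 0.00773% in all 4 FS and no PS library. Presence was also tested with Fisher's exact test, adjusted over all 64662 sites. Of the 74 sites, 0 passed for either factor and 0 had an unadjusted p of 0.05 or less, while 0.0479% of all sites had such a p for each factor. The lowest unadjusted p was 0.143, at site 72 for Ia against Ca and at site 11 for PS against FS. The smallest p that 4 against 4 libraries allow is 0.0286.

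The strength of the 9 common sites was compared by rank, because folds of different lists have different backgrounds. Each list was ranked over the 6756 sites of the genome that all 8 libraries held, as a percentile with 0 for the strongest, and the ranks were fitted with limma over all of them. None of the 9 sites passed for Ia against Ca or for PS against FS, and 0 of 9 had an unadjusted p of 0.05 or less in either contrast. Over the 6756 sites 0 passed after adjustment, while 4.88% had an unadjusted p of 0.05 or less for Ia against Ca and 5.91% for PS against FS. The median difference of the 9 sites was -11.2 points for Ia minus Ca, against -0.0805 over all 6756, and 3.53 points for PS minus FS, against 0.0398 over all. The 9 sites differed in sign, with 3 of 9 positive for Ia minus Ca and 6 of 9 for PS minus FS. The interaction of the factors had 0 of 9 sites at an unadjusted p of 0.05 or less (limma, lowest adjusted p = 0.926).

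Sites 54 and 14 came nearest to a difference. At site 54 the Ia libraries had percentiles of 50.5 and 64.0 in PS_Ia and 16.2 and 36.5 in FS_Ia, and the Ca libraries had 62.5 and 81.8 in PS_Ca and 76.7 and 36.5 in FS_Ca. The Ia mean was 41.8 ± 20.4 and the Ca mean 64.4 ± 20.3 (SD, n = 4 each), with a difference of -22.6 ± 11.5 (SE; limma, unadjusted p = 0.0833, adjusted p = 0.979), and the groups overlapped. It ran between -29.2 (without FS_Ca replicate 2; unadjusted p = 0.0443, adjusted p = 0.831) and -12.8 (without FS_Ca replicate 1; limma, unadjusted p = 0.243). PS minus FS at site 54 was 23.2 ± 11.5 (SE, limma, unadjusted p = 0.0764, adjusted p = 0.821), so the site leaned as much by switch length. At site 14 the PS libraries had 91.2 and 73.9 in PS_Ia and 98.8 and 81.8 in PS_Ca, and the FS libraries had 56.7 and 36.5 in FS_Ia and 19.0 and 96.0 in FS_Ca. The PS mean was 86.4 ± 10.9 and the FS mean 52.1 ± 33.1, with a difference of 34.3 ± 16.0 towards the weak end in PS (SE; limma, unadjusted p = 0.0640, adjusted p = 0.816). FS_Ca replicate 2, at 96.0, lay among the PS libraries, and without it the difference was 50.02 (limma, unadjusted p = 0.00408, adjusted p = 0.570). Without FS_Ca replicate 1 it was 19.3 (limma, unadjusted p = 0.172), and on a normal-score scale the unadjusted p was 0.04999 (limma, adjusted p = 0.903). None of these passed after adjustment.

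**Figure D5:**
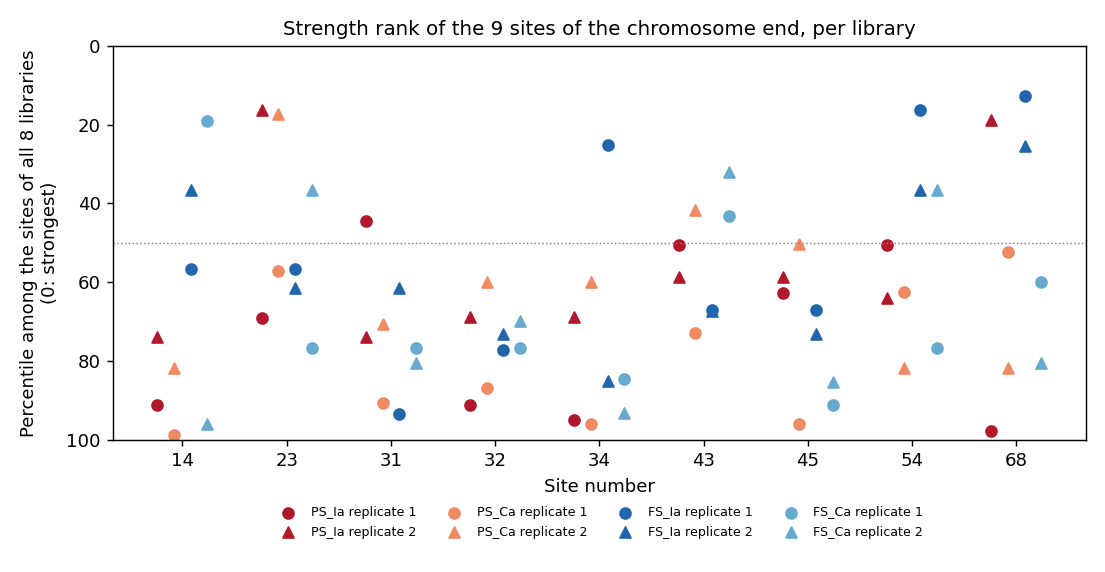
Percentile of column 7 among the 6756 sites of all 8 libraries (0 is strongest, axis drawn downwards) for the 9 common sites of the chromosome end, with circles for replicate 1 and triangles for replicate 2 of each genotype. The libraries of a genotype lie far apart at several sites, as at site 68, where PS_Ia replicate 1 is at 97.8 and PS_Ia replicate 2 at 18.7.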

How the data were processed

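Chromatin of stimulated cells was precipitated with an anti-Rad21 antibody, tagmented with Tn5 and sequenced as paired ends, per the labels' protocols. Per the submitters' processing notes, the tools were MACS2 2.2.7.1, deepTools 3.5.1, SAMtools 1.15.1 and Bowtie2 2.4.4, with mm9. The peak threshold, read filters, control library and reference sequence (plain or modified) were not given in the sources used here. Peaks had been called per library, and a deposited list holds the authors' score, the fold (a ratio over background, column 7), the −log10 p and −log10 q and the summit offset. Summit heights were read back from the deposited folds as (height + 1) over (background + 1), and all came out whole.

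One shift of up to 150000 bp per list was the one with most summit pairs within 500 bp of PS_Ia replicate 1, refined to the median difference. Peaks overlapping by at least 1 bp then formed sites. The VH genes and Cμ were placed by approximate mm9 windows. Densities use the length that all 8 shifted lists cover. Shares and densities were compared by exact permutation (70 assignments of 4 against 4 libraries, 256 sign assignments of 8), presence by Fisher's exact test and ranks by limma 3.58.1 in R 4.3.3 with the other factor as covariate, each with Benjamini-Hochberg adjustment and a threshold of 0.05. Python 3.11.15, numpy 2.4.6, pandas 2.3.3, scipy 1.17.1, statsmodels 0.14.6 and matplotlib 3.10.9 were used, and the steps were tested on simulated data.

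Sites named in the text were those from Cμ through VH in at least 2 libraries and, beyond, all sites of 8 libraries, those nearest to a factor and those with the lowest p of the rank fit. The sites of 7 libraries and sites 18, 25, 48, 62 and 63 were named after their values were seen. The members, lists and tests were chosen with earlier results of these data known. Alternatives were lists of −log10 q of at least 5 or of the strongest 11288 peaks, other rules for sites and pairs, no shift, other rank scales, a replicate block and each library left out.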

Additional observations from a re-analysis of the deposited data

Results flagged for a closer look

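Over 48 groups of 4 libraries looked at, 2 held a library far from the other 3, and chance marks about 1 in 20 groups. At site 34 (118665561 to 118666685), FS_Ia replicate 1 had a rank percentile of 25.3 among the common sites, while the other 3 FS libraries were at 84.5 to 93.2. At site 68 (120708357 to 120709630), PS_Ia replicate 1 was at 97.8, while the other 3 Ia libraries were at 12.8 to 25.5.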

How the results depend on the processing

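Both density comparisons kept their sign in every library under every alternative run. Each sign-flip p was then the smallest the test allows, so that they passed says nothing more than that sign. With a −log10 q of at least 5, differences that had not passed changed sign: Ia minus Ca was 0.210 peaks per 10000 over the whole end, 0.0335 in the Igh stretch and 0.177 beyond, PS minus FS beyond was -1.02, and the median percentile against chromosome 12 before Igh was 3.61. In lists of equal length, Ia minus Ca beyond was 0.221, PS minus FS -0.221 over the whole end and -1.11 beyond, and the percentile difference 7.29. The cause was not tested. The sites of all 8 libraries numbered 3 at the stricter threshold, 4 in lists of equal length, 0 of 184 sites with no shift, and 9 to 11 without 1 library, whereas other rules for sites gave 9.

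Leaving out each library in turn, Ia minus Ca ran between -1.56 and -0.109 over the whole end, -0.889 and -0.238 in the Igh stretch and -1.13 and 0.511 beyond, and PS minus FS between 0.285 and 1.62, 0.600 and 1.16, and -0.697 and 0.948. The density differences ran between -4.89 and -2.94 against chromosome 12 before Igh and between -6.22 and -4.86 for the Igh stretch, and the percentile differences between -5.43 and -3.50 and between 15.4 and 26.6. Sites in all remaining libraries of Ia or Ca and none of the other numbered 0 to 1, and likewise for PS or FS 0 to 1. These were site 72 without PS_Ca replicate 1 and site 11 without FS_Ia replicate 2. In each case the library left out held the site, so the pattern arose by dropping it. The shares over the genome for the same omissions are not given here. The rank differences that changed sign ran, for Ia minus Ca, between -24.9 and 6.14 at site 14, -6.46 and 14.2 at site 23, -0.316 and 9.24 at site 32 and -26.0 and 0.733 at site 34. For PS minus FS they ran between -14.2 and 0.754 at site 31, -2.60 and 8.99 at site 32, -7.48 and 19.0 at site 34, -5.95 and 8.01 at site 43 and -1.96 and 29.6 at site 68. None of these passed.

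Same-numbered libraries did not deviate together in all pairs of genotypes (correlations of -0.202 to 0.324), and the labels give the numbers no shared batch, so the numbers were not taken as pairs over the whole design. In the PS lines, though, each number goes with 1 peak-name prefix, and both replicate 1 lists are undisplaced. With a replicate block, Ia minus Ca was -0.880 (exact permutation p = 0.125) and PS minus FS 1.03 (exact permutation p = 0.375), and 0 sites were called by rank for either contrast. Other settings moved a shift by at most 63 bp. Depth limits every statement on a missing peak, since summits of 3 to 5 fragments were at the threshold, and the folds fall in coarse steps that tie many ranks.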
